A study of Arabidopsis thaliana with 12 samples.

Results

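Genes of heat shock factors (HSFs) and chaperones were examined in lists of genomic regions whose chromatin accessibility differed between h3.3ko and Col mature seeds of *Arabidopsis*. The 47 genes comprise the 21 HSF genes of the genome, HSP101, 4 cytosolic HSP90 genes, 5 cytosolic HSP70 genes, 3 BIP genes, J2 and J3, 8 small HSP genes, ROF1, ROF2 and the coactivator MBF1C. They are 47 of the 27444 protein-coding genes on the 5 nuclear chromosomes. A gene was counted when its body or the 1 kb upstream of its transcription start site (TSS) overlapped a listed region by at least 1 bp, and 24 of the 6714 listed regions met this rule at the 47 genes.

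Accessibility was measured by ATAC-seq, in which the transposase Tn5 inserts adapters mainly into nucleosome-free DNA. h3.3ko is the triple mutant htr4/htr4;htr5/htr5;htr8/htr8, which combines CRISPR-Cas9 alleles of HTR4 and HTR5 with a T-DNA insertion in HTR8 and lacks the histone variant H3.3. Its seeds were picked as those without mCherry signal from mother plants that carried a rescuing pHTR5::HTR5 transgene in the mutant background, so the mutant seeds developed on plants that made H3.3. Col is the wild-type accession, and seeds of both genotypes were used dry after storage at room temperature. Nuclei of whole seeds were stained with DAPI and sorted, with 2 biological replicates for each genotype, so that an altered share of one seed tissue and an altered accessibility within it cannot be told apart. The lists hold 3278 regions decreased in h3.3ko, with a median width of 497 bp, and 3436 regions increased in h3.3ko, with a median width of 750 bp. They give no value for a single library, so library depths were not used here, no spread between replicates can be given, and the labelled tissue could not be checked against marker genes. The whole series holds 12 libraries from 6 conditions, and those other than the mature seeds were not analysed here.

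Plants hold many HSF genes. Class A factors activate transcription through heat shock elements (HSEs), arrays of the unit GAA in alternating orientation, and the A1 factors act at the top of the response. Class B factors lack the activation motif of class A and mostly repress. The induced chaperones hold, refold or disaggregate damaged proteins, and in maturing seeds small HSPs and HSP101 also accumulate without heat, with HSFA9 known as the seed-specific factor.

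HSEs of 3 units are shown first, since 5 of the 11 decreased regions at the heat shock genes held them, against 1.46% of all decreased regions. The promoters of these genes, with and without a listed region, also held them at a higher share (7 of 47, 14.9%) than all protein-coding genes (0.481%). The count in the regions is thus no measure apart from the choice of genes. Such an HSE was searched as GAANNTTC followed after 2 bases by GAA, on both strands. The sequences are from RefSeq TAIR10.1, in the direction of the gene from 5′ to 3′, with the 3 units and the bases between them in capitals and the position of the match relative to the TSS in bp. Those inside decreased regions were at HSFA2, HSFA7B, HSFB2B, HSFB2A and HSP70-4.
HSFA2, -88 bp, chr2:11135528-11135556, plus strand: ttagtaacGAAGTTTCTGGAAcattgtct
HSFA7B, -157 bp, chr3:23399071-23399099, plus strand: agtataagTTCCGGAACTTTCtaagaaga
HSFB2B, 104 bp, chr4:7042450-7042478, plus strand: aaaaaagaGAAACTTCTGGAAaaagaaaa
HSFB2B, 324 bp, chr4:7042670-7042698, plus strand: tcctctcaGAACATTCTGGAActtcacaa
HSFB2A, 1478 bp, chr5:24917277-24917305, plus strand: ccatctgtTTCAAGAAGTTTCtgcaatct
HSP70-4, 20 bp, chr3:3993846-3993874, minus strand: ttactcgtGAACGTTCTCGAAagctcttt

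Matches of the same kind also stood in promoters, here 250 bases before to 50 bases after the TSS, that no listed region covered at the match. They are shown for contrast with the set above.
HSFA7A, -192 bp, chr3:19264941-19264969, plus strand: ttacgaagTTCCAGAAGTTTCgactattc
HSFA7A, -142 bp, chr3:19264991-19265019, plus strand: aaaaccgtTTCCAGAAGTTTCtaatttct
HSC70-3, 33 bp, chr3:2905894-2905922, minus strand: atcgaaccGAACATTCTCGAAccttttta
HSP17.4, -99 bp, chr3:16984946-16984974, minus strand: tcaacataGAAGCTTCTTGAAgccacctg
HSP17.4, -18 bp, chr3:16984865-16984893, minus strand: agaaacctGAAATTTCAAGAAacttgcag
HSP17.6C, -53 bp, chr1:19980238-19980266, plus strand: caacaccaGAAACTTCTTGAAagcacctg

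Of the 47 genes, 11 (23.4%) had a decreased region, against 14.7% of all protein-coding genes. An increased region lay at 13 of the 47 (27.7%), against 16.0% of all protein-coding genes. Regions of both kinds lay at 3 genes (6.38%), against 3.35%, and 26 genes (55.3%) had neither, against 72.6%. The shares were read as descriptions, with no test, because the genes were chosen as a group with results of these data known.

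The shares were also taken for the HSF genes and the other members apart, and the difference between these was not tested. Of the 21 HSF genes, 9 (42.9%) had a decreased and 4 (19.0%) an increased region. Of the 26 other members, 2 (7.69%) had a decreased and 9 (34.6%) an increased region. The HSF share of decreased regions thus lay above the background of 14.7% and that of the other members below it, and for increased regions the HSF share lay near the background of 16.0% and that of the other members above it.

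**Figure D1:**
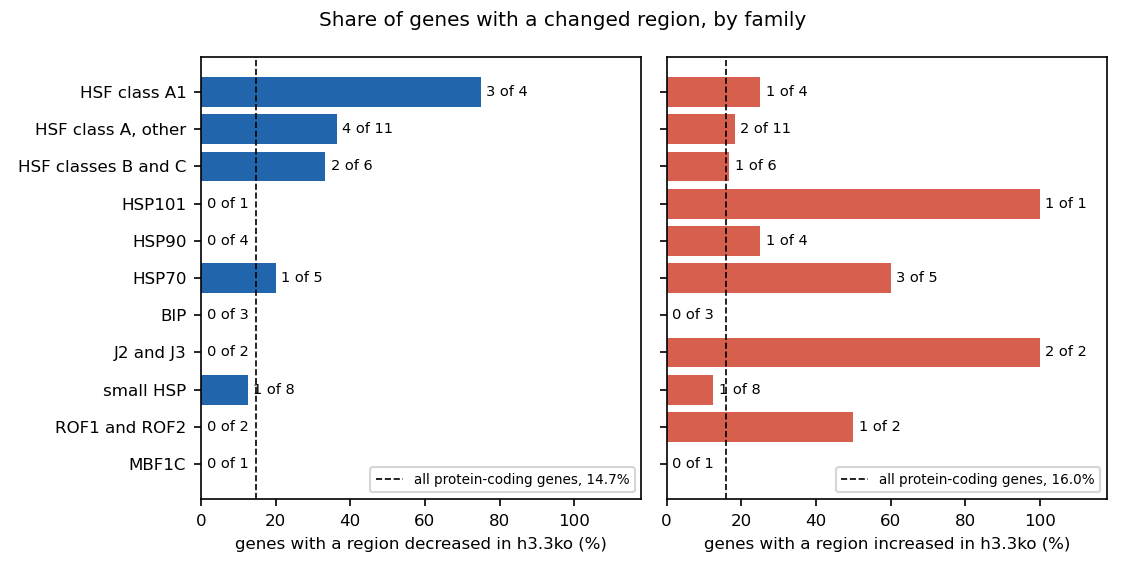
Percentage of genes with a region decreased (left) or increased (right) in h3.3ko for each family, with the number of genes beside each bar and the share over all protein-coding genes as a dashed line. Decreased regions were at 3 of 4 class A1 HSF genes and at none of the HSP101, HSP90, BIP, J2 and J3, ROF or MBF1C genes, and increased regions were at HSP101 and at both J2 and J3.

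Among the A1 factors, the master regulators of the heat response, 3 of 4 had a decreased region, against 14.7% of all protein-coding genes. All 3 regions lay over the TSS, and with 4 genes the difference was not tested. At HSFA1A (AT4G17750) the region chr4:9871454-9871744 was 291 bp wide and reached from -98 to 192 bp of the TSS, over the 5′ UTR and 150 bp of coding sequence. At HSFA1B (AT5G16820) the region chr5:5529967-5530333 was 367 bp wide and reached from -228 to 138 bp, within the 5′ UTR on its genic side. It also overlapped the body of the neighbour AT5G16810. At HSFA1E (AT3G02990) the region chr3:672809-673652 was 844 bp wide, reached from -619 to 224 bp, and was the widest of the 11 decreased regions. The decreased regions at HSFA1A and HSFA1E also met the 1 kb upstream of AT4G17760 and AT3G02980. The TSS nearest to the midpoint was that of the HSFA1 gene for all 3 regions. HSFA1E also had an increased region at its other end, chr3:675428-676587, of 1160 bp, which covered 33.4% of the gene body and ran 159 bp past the transcription end site (TES). HSFA1D (AT1G32330), the remaining A1 gene, had neither, and its nearest decreased region was 31006 bp away.

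HSFA2 (AT2G26150), the strongly heat-induced factor that sustains acquired thermotolerance, had a decreased region of 607 bp, chr2:11135208-11135814, from -416 to 190 bp. The region ran over the start of HSFA2, with 191 bp in its 5′ UTR, and into the body of the divergent gene ftsh4 (AT2G26140), which encodes a mitochondrial protease. Its midpoint lay at -113 bp of the TSS of HSFA2 and 46 bp from that of ftsh4, so both genes share it. Besides the HSE printed above, this region held G-box cores (CACGTG, searched on both strands), here in capitals because G-boxes are bound by bZIP and bHLH factors active in seeds.
HSFA2, -341 bp, chr2:11135271-11135300, plus strand: aacactaaattaCACGTGagagacctgttt
HSFA2, -56 bp, chr2:11135556-11135585, plus strand: ttgtcttgtcgcCACGTGctcacataaatg

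The other class A genes divided between the kinds of region. HSFA4A (AT4G18880), linked to oxidative stress responses, had a decreased region of 488 bp, chr4:10349638-10350125, from -223 to 264 bp, over its TSS and within the 5′ UTR. At HSFA7A (AT3G51910) the decreased region chr3:19263755-19264539 lay wholly upstream, from -1386 to -602 bp, so that both HSEs of its promoter, at -192 and -142 bp, were outside it. At HSFA7B (AT3G63350), a close relative of HSFA7A, the decreased region chr3:23398353-23399111 reached from -883 to -125 bp and took in the HSE at -157 bp. This region also overlapped the body of AT3G63340, whose TSS was 278 bp from its midpoint.

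HSFA3 (AT5G03720), which acts downstream of DREB2A in drought and heat, was the one HSF with an increased region over its TSS. The region chr5:974067-975583 was 1517 bp wide, from -1257 to 259 bp, and overlapped the 3′ part of the neighbour CTR1 (AT5G03730), a kinase of ethylene signalling, with its midpoint 499 bp from the TSS of HSFA3 and 465 bp from the TES of CTR1. At HSFA6A (AT5G43840) an increased region of 259 bp, chr5:17627463-17627721, only met the outer end of the upstream window, from -1234 to -976 bp, and lay in the body of ARD4 (AT5G43850). HSFA4C, HSFA5, HSFA6B, HSFA8 and the seed-specific HSFA9 had no listed region. The nearest regions to HSFA9 (AT5G54070) were a decreased one 3664 bp upstream and an increased one 1893 bp downstream.

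In classes B and C, the genes with regions were the paralogues HSFB2A and HSFB2B, both repressors. At HSFB2B (AT4G11660) a decreased region of 513 bp, chr4:7042346-7042858, began at the TSS (-8 to 504 bp) and lay almost wholly in the 5′ UTR, with both of its printed HSEs. An increased region of 906 bp, chr4:7044256-7045161, was centred on the TES of HSFB2B, with 453 bp on each side, and also overlapped AT4G11670. At HSFB2A (AT5G62020) the decreased region chr5:24917116-24917521, of 406 bp, was at the opposite end of the gene. It covered 79 bp of coding sequence and 327 bp of 3′ UTR and ended 122 bp before the TES, the only one of the 11 decreased regions nearer to the TES than to the TSS. This region held the HSE at 1478 bp and, beside it, a G-box core, shown in capitals.
HSFB2A, 1462 bp, chr5:24917257-24917286, plus strand: agacaagcagagCACGTGtcccatctgttt
A heat-induced antisense RNA of HSFB2A has been described in *Arabidopsis*. HSFB1, HSFB3, HSFB4 and HSFC1 had no listed region.

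**Figure D2:**
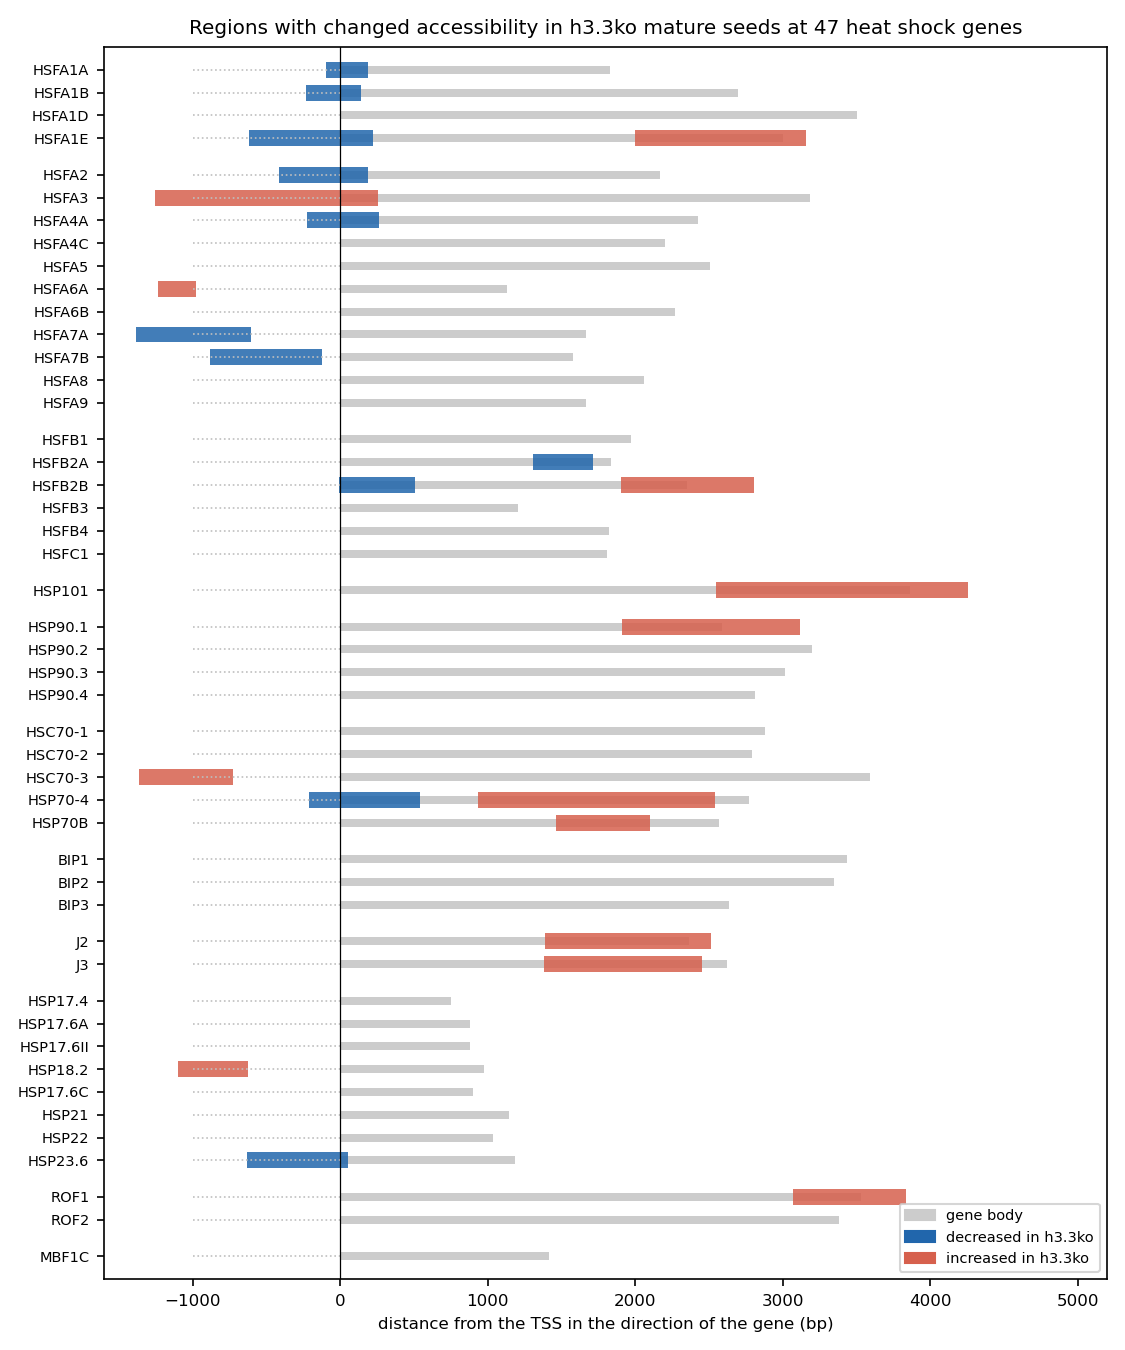
The 47 genes, drawn to scale from the TSS in the direction of the gene in bp, with the gene body in grey, the 1 kb upstream window as a dotted line, and regions decreased (blue) or increased (red) in h3.3ko. Of the 11 decreased regions 8 overlapped the TSS, and of the 13 increased regions 9 had their midpoint nearer to the TES.

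Among the chaperones, HSP101 (AT1G74310), the ClpB-type disaggregase needed for acquired thermotolerance, had the widest of all 24 regions. This increased region, chr1:27936113-27937818, was 1706 bp wide, covered 33.9% of the gene body at its 3′ end and ran 395 bp past the TES into AT1G74300. HSP90.1 (AT5G52640), the heat-induced member of the cytosolic HSP90 family, had an increased region of 1206 bp, chr5:21354469-21355674, which held 679 bp of coding sequence, extended 527 bp beyond the TES and also overlapped AT5G52650. The constitutive HSP90.2, HSP90.3 and HSP90.4, which lie close together on chromosome 5, had none. Their nearest increased region was 37612 to 46610 bp away and their nearest decreased region 63126 to 72645 bp away.

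The cytosolic HSP70 genes had increased regions in 3 of 5 cases (60.0%), against 16.0% of all protein-coding genes, and with so few genes the difference was not tested. At HSP70-4 (AT3G12580), a strongly heat-induced gene, an increased region of 1605 bp, chr3:3991347-3992951, covered 57.9% of the gene body, with 1465 bp in coding sequence. The same gene had a decreased region of 755 bp over its TSS, chr3:3993343-3994097, from -211 to 543 bp, which held the HSE at 20 bp. At HSP70B (AT1G16030), also heat-induced, an increased region of 639 bp, chr1:5502435-5503073, lay wholly in coding sequence. At HSC70-3 (AT3G09440) the increased region chr3:2906675-2907310 was 728 bp upstream, and its midpoint was nearer to the TSS of the neighbour AT3G09450, at 486 bp. HSC70-3 was not counted when the window held 500 bp upstream. HSC70-1 and HSC70-2 had none.

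J2 (AT5G22060) and J3 (AT3G44110), DNAJ partners of cytosolic HSP70, had increased regions at similar distances from their TSS. At J2 the region chr5:7303359-7304482 was 1124 bp wide, lay 1388 to 2511 bp from the TSS and covered 41.3% of the gene body. At J3 the region chr3:15868803-15869876 was 1074 bp wide, lay 1380 to 2453 bp from the TSS and covered 40.9%. The J2 region also overlapped the end of AT5G22050. A decreased region lay 996 bp past the TES of J3, outside the window.

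The 8 small HSP genes encode holdases that keep unfolded proteins soluble. Of these genes, 6 had no listed region, near the 72.6% of protein-coding genes of all lengths. The small HSP genes are short, with a median of 940 bp, and this share was not compared at matched length. Of all protein-coding genes under 1000 bp, 6.31% had a decreased and 5.67% an increased region. HSP23.6 (AT4G25200), a mitochondrial form, had a decreased region of 684 bp, chr4:12916297-12916980, from -629 to 54 bp. HSP18.2 (AT5G59720) had an increased region of 471 bp, chr5:24061225-24061695, which was 628 bp upstream and lay in the body of VIP2 (AT5G59710). HSP17.4, HSP17.6A, HSP17.6II, HSP17.6C, the chloroplast HSP21 and HSP22 had neither.

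ROF1 (AT3G25230), an FKBP-type prolyl isomerase that binds HSP90, had an increased region of 760 bp, chr3:9191170-9191929, across its TES. Its paralogue ROF2 had none. The BIP genes, the HSP70s of the endoplasmic reticulum, and MBF1C also had none by the rule. Increased regions were, however, close beyond the 3′ ends of MBF1C (AT3G24500), at 125 bp, BIP3 (AT1G09080), at 215 bp, and BIP1 (AT5G28540), at 433 bp. HSFA1B and HSFA4C likewise had increased regions 51 and 851 bp past their ends.

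By position, 10 of the 11 decreased regions (90.9%) had their midpoint nearer to the TSS, against 89.0% of all pairs of a decreased region and a protein-coding gene. They overlapped the TSS in 8 cases (72.7%), against 54.5%. Of the 13 increased regions 4 (30.8%) were nearer to the TSS, against 24.8% of all pairs, and 6 (46.2%) overlapped the TES, against 38.7%. Both kinds of region thus lay mostly at the same ends of genes as over all protein-coding genes. The 3 genes with regions of both kinds, HSFA1E, HSFB2B and HSP70-4, each had the decreased region at the TSS and the increased one in the 3′ part of the gene.

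**Figure D3:**
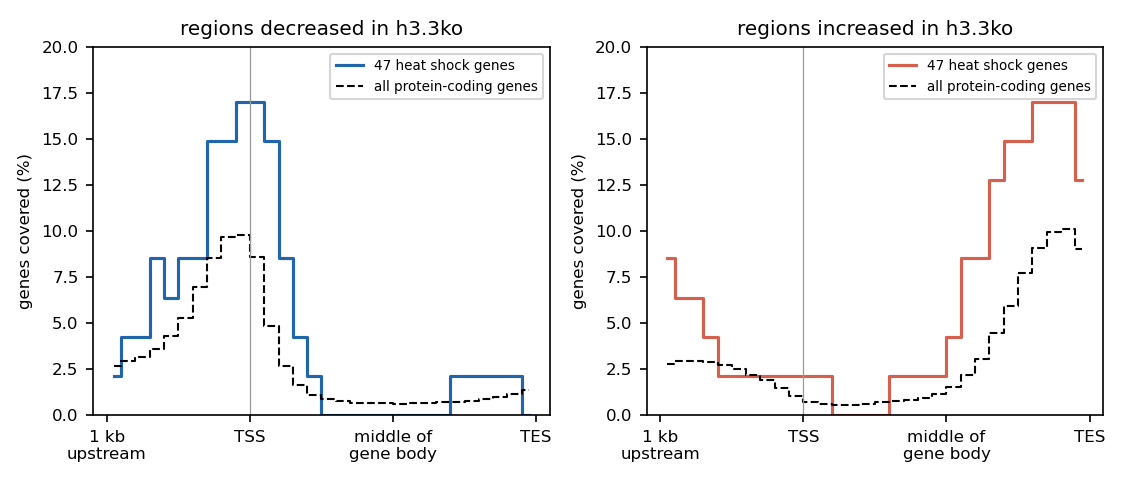
Percentage of genes covered by a decreased (left) or increased (right) region along 1 kb upstream in bins of 100 bp and along the gene body in 20 equal bins, for the 47 heat shock genes (solid) and all protein-coding genes (dashed). Just upstream of the TSS 8 of the 47 genes and 9.79% of all genes were covered by a decreased region, and toward the TES 8 of the 47 and 9.96% of all genes were covered by an increased one.

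The decreased regions at the 47 genes had a median width of 607 bp (291 to 844 bp), against 498 bp over all pairs, and the increased regions one of 1074 bp (259 to 1706 bp), against 810 bp. Of the summed width of the decreased regions 61.2% was upstream and 24.3% in 5′ UTR, against 66.2% and 13.2% over all pairs. Of the increased regions 41.0% was coding sequence, 15.2% 3′ UTR and 15.2% past the TES, against 30.6%, 15.1% and 18.1%. The median GC content was 36.3% in the decreased regions at heat shock genes and 36.2% in all decreased regions, and it was 40.5% in the increased regions at heat shock genes and 39.2% in all increased regions.

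Longer genes can meet more regions, so shares were also compared within ranges of gene length. Among genes of at least 1000 bp and under 2000 bp, 4 of 10 HSF genes had a decreased region, against 12.9% of all protein-coding genes. Among genes of at least 2000 bp and under 3000 bp, 4 of 8 HSF genes had one, against 17.8%. In the same range, 5 of 9 members other than HSFs (55.6%) had an increased region, against 16.9%. At 3000 bp and more, 3 of 8 of these members (37.5%) had one, against 31.3%, so in the longest range their share was close to the background. Of the 5 members under 1000 bp, all of them small HSP genes, 1 had an increased region, against 5.67% of all genes of that length, and 0 had a decreased region, against 6.31%.

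**Figure D4:**
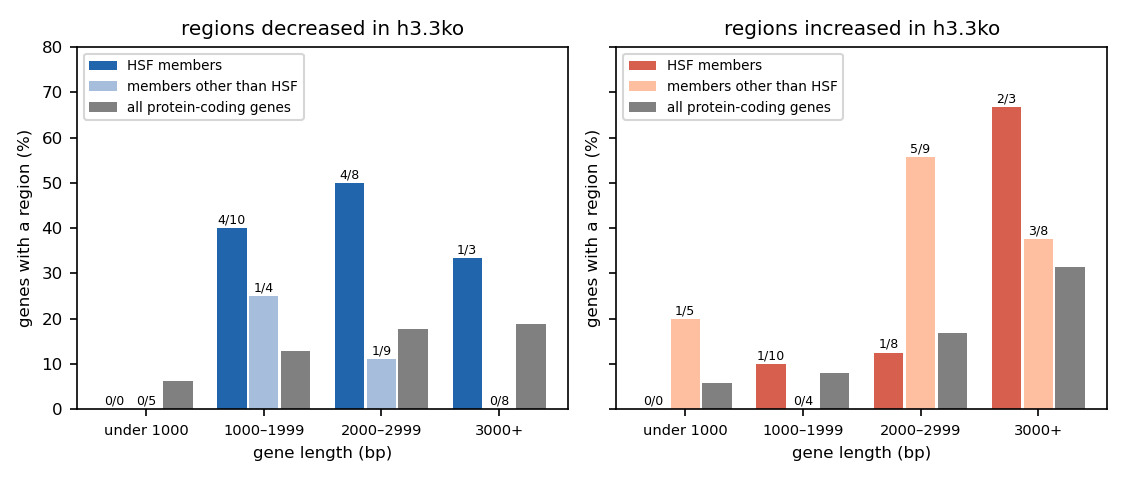
Percentage of genes with a decreased (left) or increased (right) region by gene length in bp, for HSF genes, the other members and all protein-coding genes, with counts above the bars. HSF genes lay above all protein-coding genes for decreased regions in the 3 ranges that hold any, with 4 of 10, 4 of 8 and 1 of 3 genes.

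Motifs were counted in the central 300 bases of each region and in the whole region. HSEs of 3 units were in the central bases of 4 of the 11 decreased regions (36.4%), against 0.824% of all decreased regions, and of 0 of the 13 increased regions, against 0.553% of all increased regions. In whole regions the counts were 5 of 11 (45.5%), against 1.46%, and 0 of 13, against 1.72%. With so low a share over all increased regions, the 0 among 13 is at the background. In promoters, 7 of the 47 genes (14.9%) had such a match, against 0.481% of all protein-coding genes. Of these 7, HSFA2, HSFA7B and HSP70-4 had the match inside a decreased region, and HSFA7A, HSC70-3, HSP17.4 and HSP17.6C did not. HSP17.4 and HSP17.6C had no listed region at all.

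The shorter form of 2 facing units, GAANNTTC, which every 3-unit match contains, was in the central 300 bases of 4 of the 11 decreased regions (36.4%), against 11.0% of all decreased regions, and of 1 of the 13 increased regions (7.69%), against 9.78%. In whole regions the counts were 7 of 11 (63.6%), against 20.3%, and 3 of 13 (23.1%), against 26.2%. The whole decreased regions with this form and no 3-unit match were those at HSFA4A, at -173 bp, and HSP23.6, at 13 bp. G-box cores were in 3 of the 11 decreased regions (27.3%), at HSFA1E, HSFA2 and HSFB2A, by either window, against 24.3% of all decreased regions in the central bases and 33.9% in whole regions, so the order of the shares depended on the window. In the increased regions a G-box core was in 0 of the 13 by the central bases, against 4.63%, and in 1 of 13 whole regions (7.69%), against 11.6%. The RY core CATGCA, bound by seed maturation factors with a B3 domain, was in the central bases of 0 of the 11 decreased regions, against 10.3%, and in 1 of 11 whole regions (9.09%), against 18.0%. It was in the central bases of 1 of the 13 increased regions (7.69%), against 11.9%, and in 2 of 13 whole regions (15.4%), against 28.1%. HSEs were also found at a higher share in the promoters of these genes, with and without a listed region, so that the count in the regions is no measure apart from the choice of genes.

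**Figure D5:**
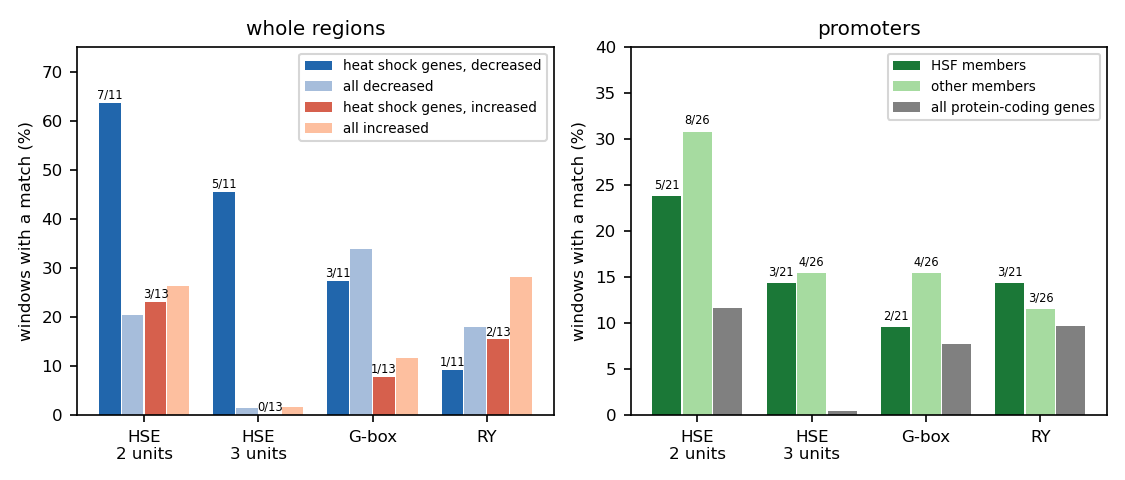
Percentage of whole regions (left) and of promoters (right) with an exact match to each motif on either strand, with counts above the bars of the heat shock genes. HSEs of 3 units were in 5 of 11 decreased and 0 of 13 increased regions at heat shock genes, and in the promoters of 3 of 21 HSF genes and 4 of 26 other members.

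Several chaperone genes have near copies, in which short reads may be placed at the wrong gene. Of the 11 decreased regions 10 had no second match in the genome (blastn, e-value limit 1e-10), and that at HSP70-4 matched over 220 bp with 84.5% identity. The increased regions at HSP70-4, HSP70B, HSP90.1, J2 and J3 matched a relative with 79.9%, 76.3%, 77.4%, 78.0% and 75.6% identity over 1471, 616, 686, 633 and 774 bp, and that at HSP101 matched AT1G74280 with 86.9% over 358 bp. The closest pairs were BIP1 and BIP2, with 97.2% identity of coding sequence and a longest identical run of 323 bp, and HSP90.2 and HSP90.3, with 95.7% and 238 bp. None of these 4 genes had a listed region, and the part of read placement in this was not tested.

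Other genes of the same pathways were counted from 3 lists, 59 genes in all, of which 15 (25.4%) had a decreased and 16 (27.1%) an increased region, against 14.7% and 16.0% of all protein-coding genes. Of 23 further HSP100, HSP90, HSP70 and small HSP genes, 3 (13.0%) had a decreased region, near the 14.7% of all protein-coding genes, and 8 (34.8%) an increased region, against 16.0%. The 8 included CLPB4, the mitochondrial Hsp89.1, SHD, which is the HSP90 of the endoplasmic reticulum, cpHsc70-1 and mtHsc70-1. Of 14 chaperonin genes, 2 (14.3%) had a decreased region, near the same 14.7%, and 5 (35.7%), among them CPN60A and HSP60, an increased region, against 16.0%. The chaperonin genes are long, with a median of 3724 bp. Of all protein-coding genes of 3000 bp and more, 31.3% had an increased region, near the chaperonin share. The list of further HSP genes mixes lengths from 834 to 5396 bp, with a median of 3315 bp. Its small HSP genes had no increased region, so all 8 genes with one were HSP100, HSP90 or HSP70 genes. Their share was not compared at matched length.

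Of 22 genes for co-chaperones and folding in the endoplasmic reticulum, 10 (45.5%) had a decreased region, against 14.7% of all protein-coding genes, and 3 (13.6%) an increased region, near the 16.0% of all protein-coding genes. The decreased regions were at Hop1 and Hop2, which link HSP70 to HSP90, at BAG7 and HSA32, at ERdj3A, ERdj3B and P58IPK, which are DNAJ proteins of the endoplasmic reticulum, and at CRT1b, CRT3 and AT5G07340, of the calreticulin family. The increased regions were at Hop2, BAG6 and AT5G07340. BIP1, BIP2 and BIP3, whose products work with the ERdj3 proteins, had neither kind.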

How the data were processed

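The authors trimmed ATAC-seq reads with fastp 0.20.1, aligned them by Bowtie2 against TAIR10, discarded organelle reads and duplicates (Picard 2.24.0), called peaks with MACS2 per replicate and kept those found in both. Merged peaks of both genotypes were scored with deepTools and listed when past thresholds of fold difference and adjusted P. The test, and whether reads were shifted to Tn5 cut sites, are not given in the sources used here. The deposited values used here are the start and end positions of the regions. A further column, the authors' log2 ratio between h3.3ko and Col, is their own comparison and was not used.

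Starts were converted to 1-based positions. All regions lay inside the chromosomes of RefSeq TAIR10.1, which gave genes and sequence. A gene was assigned every region that overlapped its body or 1 kb upstream by at least 1 bp. All 47 members were named, each with every region, and neighbours only where they share one. The members, lists and motifs were chosen with earlier results of these data known. Shares are given beside those of all protein-coding genes, with no test. The assignment was tested on simulated regions. Motifs were exact matches on either strand. Alternatives covered the window, the overlap, 1 gene per region, the width and the motif window. A stricter fold threshold was not tried, since that column was not used. Python 3.11.15, pandas 2.3.3, Biopython 1.88, BLAST+ 2.17.0 and matplotlib 3.10.9 were used.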

Additional observations from a re-analysis of the deposited data

How the results depend on the processing

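Of 124 counts recomputed under other settings, 111 stayed within 1.5 times the main one, for motifs that of the central 300 bases. Genes with both kinds of region numbered 5 (10.6%) with 2 kb upstream, against 4% of all protein-coding genes. With 1 kb downstream added, genes with both kinds also numbered 5 (10.6%), against 4.14%. HSF genes with an increased region numbered 2 (9.52%) with the region midpoint inside the window, against 12.9% of all protein-coding genes. They numbered 1 (4.76%) with each region counted for 1 gene, against 11.8%. With 1 gene per region, co-chaperones with a decreased region numbered 6 (27.3%) and chaperonins 0, against 11.4% of all protein-coding genes. With 1 kb downstream, co-chaperones with an increased region numbered 6 (27.3%), against 19.0%. With the gene body only, 1 of 10 increased regions (10.0%) was nearer to the TSS, against 6.73% of all pairs. Whole regions held GAANNTTC in 7 decreased and 3 increased regions, against 4 and 1 by the central 300 bases, a G-box core in 1 increased region, against 0, and an RY core in 1 decreased and 2 increased regions, against 0 and 1. The gene body alone dropped HSFA7A and HSFA7B from the decreased set, and HSC70-3, HSFA6A and HSP18.2 from the increased set. Counting 1 gene per region dropped HSFA2 and HSFA7B from the decreased set, and HSC70-3, HSFA3, HSFA6A, HSFB2B and HSP18.2 from the increased set. The same setting added BIP1 to the increased set. With 2 kb upstream, HSFB3 and J2 entered the decreased set and HSFB2A the increased set. With 1 kb downstream, J3 entered the decreased set, and BIP1, BIP3, HSFA1B, HSFA4C and MBF1C the increased set. The cause of each is the construction of the setting. Depth, which the lists do not give, sets which regions could be listed, so a gene with none is not shown to be unaltered. No paired analysis was possible because the lists hold no value per library and the results come from no test, and for the same reason no replicate could be left out.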
